A study of Homo sapiens with 6 samples.

Results

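The 10 genes described here were named in earlier work as targets of miR-204 that act in signalling or secretion, and were followed in ARPE-19, an established human cell line of retinal pigment epithelium. They were EPHB2, PTPN11, ANGPT1, JAK2, ITPR1, BDNF, NTRK2, ELOVL6, SERP1 and ALPL. They were found by symbol in the deposited gene table, where each of the 10 names matched 1 of 60612 rows. The series holds 6 libraries of poly(A)-selected RNA: 3 from cells transfected with miR-204-5p and 3 from cells transfected with miR-NC, its control. No genotype, time or dose is stated, nor whether the transfection was transient or stable. Poly(A)-selected libraries do not measure a mature microRNA, so delivery of miR-204-5p could not be checked in them. The values are FPKM, counts of sequenced fragments divided by transcript length and by the library's total.

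A microRNA guides a silencing complex to messenger RNAs whose 3' untranslated region (UTR) pairs with its seed, the bases near its 5' end, and paired messages are translated less or degraded. MiR-204 is abundant in the retinal pigment epithelium, where it is known for upholding epithelial barrier function and differentiation. The genes followed here are spread over receptor signalling (a kinase receptor of contact guidance, a neurotrophin and its receptor, a vessel growth factor, a cytokine kinase, a phosphatase), calcium release, fatty acid elongation, protein entry into the endoplasmic reticulum, and phosphate release at the cell surface.

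The mature microRNA is shown with its seed (bases 2 to 8) in capitals, beside miR-211-5p, the only other mature microRNA in the human RefSeq table (GRCh38.p14) with the same seed. Under them stands 1 match for each of 8 genes, as the 30 bases of the messenger strand that end with it, with the match in capitals. They show which letters can pair with the seed and how the match class differs between genes.
hsa-miR-204-5p: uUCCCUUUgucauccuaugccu
hsa-miR-211-5p: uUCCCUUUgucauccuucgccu
BDNF 8mer: tttgagaacttttggtaagggaAAAGGGAA
EPHB2 8mer: ctgttccgggagcctgagctgcAAAGGGAA
JAK2 8mer: gtactgtaaatatttttcacatAAAGGGAA
ITPR1 8mer: tgaagaagataatgaattttttAAAGGGAA
ALPL 8mer: tttctctttttggtggtggttaAAAGGGAA
SERP1 7mer-m8: aaaagcttctaaatgtctaatatAAAGGGA
ELOVL6 7mer-m8: tcttgctttgagagtgtacagtaAAAGGGA
PTPN11 7mer-A1: ttttgttgtagcttagtatccatAAGGGAA

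All of these lie in the exonic 3' UTR of the gene, read from GENCODE release 29 transcripts (GRCh38). The BDNF window is at chr11:27656147-27656176 on the minus strand and the EPHB2 window at chr1:22915974-22916003 on the plus strand. The JAK2 window is at chr9:5127400-5127429, that of ITPR1 at chr3:4846968-4846997 and that of ALPL at chr1:21578340-21578369, all on the plus strand. The SERP1 window is at chr3:150543875-150543904 and that of ELOVL6 at chr4:110049540-110049569, both on the minus strand, and that of PTPN11 is at chr12:112509015-112509044 on the plus strand.

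Each gene was searched on the messenger strand of the longest 3' UTR found among its coding transcripts with a complete end. The classes of match were AAAGGGAA (8mer), AAAGGGA (7mer-m8), AAGGGAA (7mer-A1) and AAGGGA (6mer), each counted once under its longest class. All 10 genes held a match of some class, against 36.9% of 19128 protein-coding genes searched the same way. An 8mer was present in 6 of the 10 (EPHB2, ANGPT1, JAK2, ITPR1, BDNF and ALPL), against 8% of those genes. An 8mer or a 7mer-m8 was present in 9 of the 10, against 17.3%. PTPN11 held a single 7mer-A1 match. Lists of reported targets are commonly built through seed matches, so these shares are a description of the list.

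Long UTRs hold more matches by their length alone. EPHB2 (7630 bases), NTRK2 (6081 bases) and ELOVL6 (5492 bases) belong to the tenth of genes with the longest 3' UTRs, in which 86.1% hold a match of some class and 28.4% an 8mer. At the other end, the 3' UTR searched for ANGPT1 had 343 bases and holds an 8mer. In that length class (340 to 528 bases) 1.57% of genes hold one. The ANGPT1 gene runs on past the end of that UTR, and its longest coding transcript has 4.353 kb, against 1523 bases for the transcript searched. Its full 3' UTR may therefore be longer and belong to a higher length class. ALPL has an 8mer in 764 bases, 43 bases before the UTR ends, in a class (528 to 777 bases) where 3.14% of genes hold one. BDNF holds the densest cluster: a 7mer-A1 at bases 1661 to 1667 after the stop codon runs into the 8mer at bases 1667 to 1674, sharing 1 base, and its letters can be read in lower case just before the capitals above. ELOVL6 holds 3 matches of class 7mer-m8, at bases 949 to 955, 1386 to 1392 and 1792 to 1798. NTRK2 has a 7mer-m8 and a 6mer in its longest 3' UTR. Another annotated NTRK2 UTR, of 5633 bases, holds an 8mer, a 7mer-A1, a 7mer-m8 and a 6mer, which the shares above do not count.

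**Figure D1:**
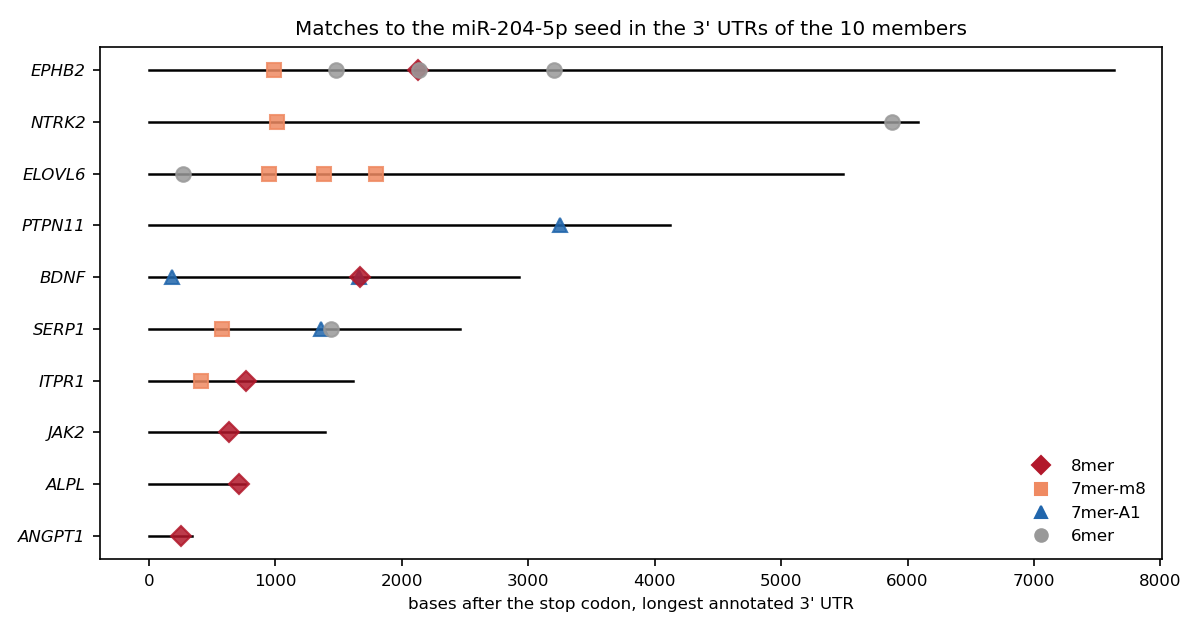
Matches to the miR-204-5p seed along the 3' UTR searched for each of the 10 genes. The x axis is the distance from the stop codon in bases, black lines are the UTRs and symbols the 4 match classes. The 8mer matches (red diamonds) include those of ANGPT1 and ALPL, in searched UTRs of 343 and 764 bases, of which that of ANGPT1 may be incomplete. PTPN11 holds 1 match, a 7mer-A1, in 4121 bases.

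By level, the genes fell into those that ARPE-19 expressed and those at or near 0. FPKM is scaled by length, so levels can be set beside each other. PTPN11 had a mean over the 6 libraries of 12.5 ± 6.27 FPKM (SD, n = 6) and SERP1 one of 12.2 ± 2.96 FPKM (SD, n = 6), a difference smaller than their spread. ELOVL6 followed at 7.79 ± 2.42 FPKM and EPHB2 at 5.43 ± 2.04 FPKM (SD, n = 6 each), again closer than their spread, and then BDNF at 2.99 ± 0.47 FPKM (SD, n = 6). JAK2 at 0.356 ± 0.133 FPKM and ITPR1 at 0.255 ± 0.127 FPKM (SD, n = 6 each) were lower and did not differ beyond their spread. ANGPT1, NTRK2 and ALPL stayed under 0.05 FPKM in every library, and each was listed at 0 in at least 1.

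Only genes with at least 0.5 FPKM in at least 3 libraries were tested, which 5 of the 10 met: EPHB2, PTPN11, BDNF, ELOVL6 and SERP1. The other 5 are given by their values. Of the 5 tested, 0 passed the test, at an adjusted p under 0.05 in limma (Benjamini-Hochberg over 13151 genes). The background was the same: 0 of the 13151 genes tested (0%) passed. At an unadjusted p under 0.05 stood 1 of the 5, SERP1, which was lower with miR-204-5p, where 0.92% of all genes tested were lower and 1.16% higher at that p, 2.08% in all. All 5 had a log2 fold change (miR-204-5p against miR-NC, in units of log2(FPKM + 1), a scale that shrinks differences of low genes) below 0, as had 53.1% of all genes tested. Their median was -0.38, and that of all genes tested -0.02, with quartiles of -0.15 and 0.13. In 3 of the 5 (EPHB2, BDNF and SERP1) the 3 miR-204-5p values all lay under the 3 miR-NC values, as in 2.17% of all genes tested, against 3.77% with all 3 higher and 5.95% in either direction. Since these genes were chosen with results of these data known, none of these shares is evidence about the list.

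**Figure D2:**
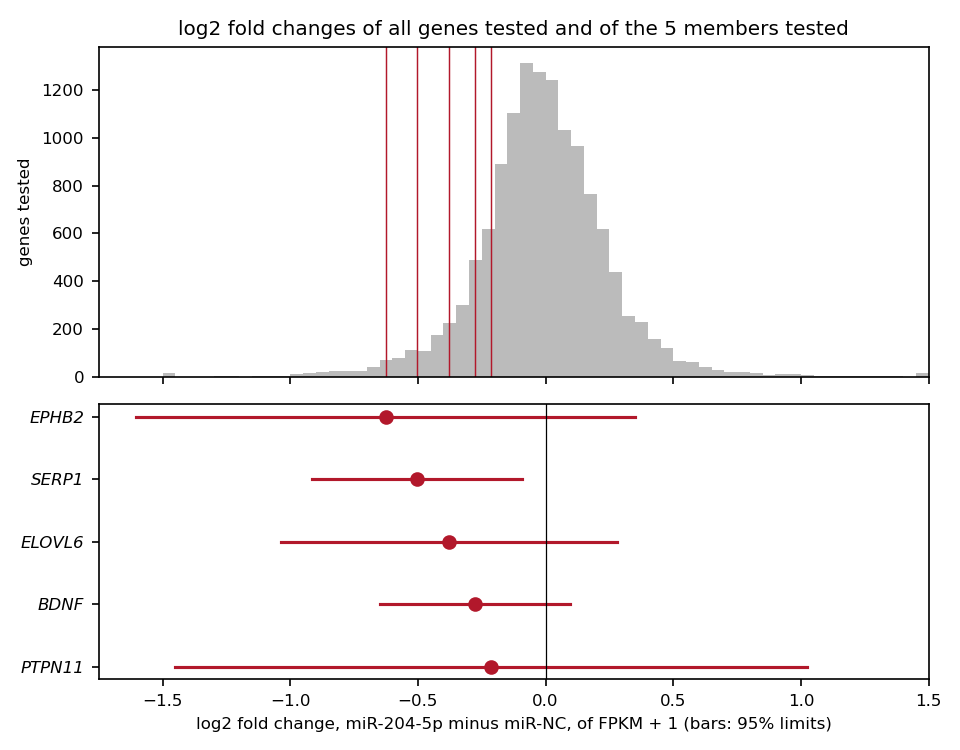
Upper panel: number of genes tested (y axis) by log2 fold change of FPKM + 1 (x axis, miR-204-5p minus miR-NC; the end bins hold all values beyond them), with red lines at the 5 tested genes. Lower panel: those 5 values with their 95% limits; the limits of SERP1, from -0.92 to -0.09, end below 0 and the others cross it.

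BDNF and its receptor NTRK2 come first among the ligands and receptors. BDNF, a secreted neurotrophin that supports neurons and signals through NTRK2, stood at 2.63, 2.76 and 2.42 FPKM in replicates 1, 2 and 3 of miR-204-5p and at 3.49, 3.59 and 3.03 FPKM in those of miR-NC. The groups stood clear of each other, and the highest miR-204-5p library lay 0.277 FPKM under the lowest miR-NC library. The means were 2.60 ± 0.17 and 3.37 ± 0.29 FPKM (SD, n = 3 each), and the log2 fold change was -0.28 (SE 0.16), with limits of -0.65 and 0.09, and an adjusted p of 1.00 (limma). BDNF was the steadiest of the 5 tested genes, with values from -0.33 to -0.24 when any single library was left out. BDNF-AS, an antisense transcript that shares 701 exon bases with BDNF, was between 0.023 and 0.103 FPKM.

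NTRK2, the receptor kinase TrkB, was listed at 0, 0.0227 and 0.0052 FPKM with miR-204-5p and at 0.0063, 0.0274 and 0.0114 FPKM with miR-NC. The groups overlapped, and the highest value corresponds to about 5.5 read pairs over the whole gene, so no difference was detectable at this depth. NTRK3, another receptor kinase of the family, had group means of at most 0.029 FPKM, read after its values were seen. Of 16 other neurotrophins, receptors and receptor adaptors in the table, 8 were tested, 2 had a log2 fold change above 0 and 6 below, and 0 passed the test or reached an unadjusted p under 0.05 (limma). The highest of them, and the one with the smallest p, was SHC1, an adaptor that links receptor kinases to RAS and that holds an 8mer match. SHC1 stood at 87.1, 81.2 and 79.1 FPKM with miR-204-5p and 97.7, 96.4 and 106 FPKM with miR-NC. Its groups did not overlap, its log2 fold change was -0.28 with limits of -0.61 and 0.06, and its unadjusted p was 0.0953 (limma).

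EPHB2, a receptor kinase that reads ephrin-B ligands on neighbouring cells, had the lowest log2 fold change of the 5, and 1 library made most of it. The miR-204-5p values were 5.65, 6.04 and 1.42 FPKM and the miR-NC values 7.28, 6.14 and 6.04 FPKM. The groups did not overlap, but by only 0.0015 FPKM, and replicate 3 of miR-204-5p stood far below the other 5 libraries. The means were 4.37 ± 2.56 and 6.48 ± 0.69 FPKM (SD, n = 3 each), with a log2 fold change of -0.63 (SE 0.41), limits of -1.60 and 0.35 and an adjusted p of 1.00 (limma). Without that library the log2 fold change was -0.13, and without both libraries numbered 3 it was -0.17. Of the genes tested, 1.89% had a lower log2 fold change than EPHB2 with all libraries in.

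Replicate 3 of miR-204-5p also stood apart outside this gene. RN7SK, a small nuclear RNA without a poly(A) tail, was at 361 FPKM there and between 5.24 and 14.5 FPKM in the other libraries. Its part in the EPHB2 value was not tested.

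In the close relatives of EPHB2 that were tested, the groups overlapped. EPHB4 had means of 5.29 ± 0.71 and 5.15 ± 0.90 FPKM and EPHB1 of 1.11 ± 0.36 and 0.93 ± 0.30 FPKM (SD, n = 3 each). EPHB1 holds an 8mer match and EPHB4 none, and both were picked after their values were seen. Of 21 other Eph receptors and ephrins in the table, 11 were tested, of which 3 had a log2 fold change above 0 and 8 below, and 0 passed the test or reached an unadjusted p under 0.05 (limma). The highest, EPHA2, an ephrin-A receptor of epithelia, was at 58.0 ± 15.7 and 64.0 ± 14.8 FPKM (SD, n = 3 each), with a log2 fold change of -0.15 that turned to 0.057 without miR-204-5p replicate 3. EFNB3, an ephrin-B ligand with an 8mer match, had the smallest p of the list, 0.336 unadjusted (limma), with a log2 fold change of -0.22. The other tested genes of the list with an 8mer were EPHA4, EPHB1 and EFNA5, with log2 fold changes of -0.13, 0.12 and 0.03. Whether a match goes with the fold change was not tested.

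ANGPT1, the ligand of the endothelial receptor TEK, was listed at 0.0194, 0.0131 and 0 FPKM with miR-204-5p and at 0.0249, 0.0352 and 0.0455 FPKM with miR-NC. These values do not overlap between the groups, with an exact two-sided permutation p of 0.1, the smallest that 3 against 3 libraries allow. The highest of these values corresponds to about 4.13 read pairs over the gene. TEK, TIE1 and ANGPT2 had group means of at most 0.022 FPKM, chosen after their values were seen. Of 8 genes listed around the angiopoietins and TIE receptors, 3 were tested (ANGPTL2, ANGPTL4 and PTPRB), 1 above and 2 below 0. These are not angiopoietins or TIE receptors, all of which were below the filter. Of the 3, 0 passed the test or reached an unadjusted p under 0.05 (limma). The highest was ANGPTL4, a secreted inhibitor of lipoprotein lipase, at 239 ± 102 and 330 ± 180 FPKM (SD, n = 3 each). Its log2 fold change of -0.41 had limits of -1.43 and 0.61, and it was 0.0050 without miR-NC replicate 3. The smallest unadjusted p, 0.354 (limma), was that of PTPRB, the endothelial phosphatase that acts on TEK, with a log2 fold change of -0.27.

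**Figure D3:**
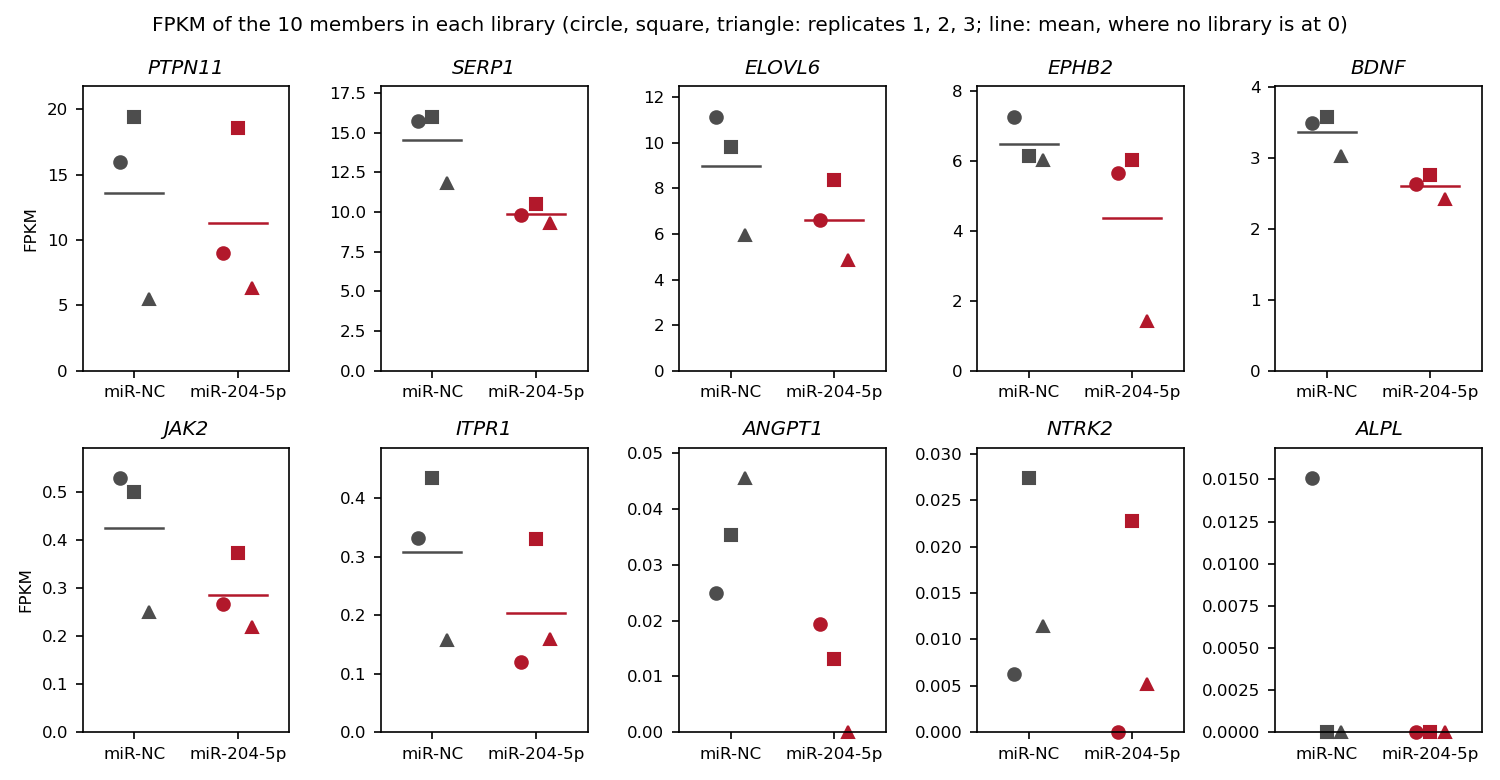
FPKM (y axis, from 0, a separate scale per gene) of the 10 genes in the 3 miR-NC libraries (grey) and the 3 miR-204-5p libraries (red); circles, squares and triangles are replicates 1, 2 and 3, and lines are group means where no library is at 0. The groups stand apart for SERP1, BDNF, EPHB2 and ANGPT1, in EPHB2 by 0.0015 FPKM, and overlap for the other genes.

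Among the signalling genes inside the cell, PTPN11, which encodes the phosphatase SHP2 that carries receptor signals to RAS, stood at 9.02, 18.6 and 6.36 FPKM with miR-204-5p. With miR-NC it was at 16.0, 19.4 and 5.46 FPKM. The groups overlapped over nearly their whole range, and the libraries numbered 3 were the lowest of each. The means were 11.3 ± 6.42 and 13.6 ± 7.28 FPKM (SD, n = 3 each), with a log2 fold change of -0.21 (SE 0.52), limits of -1.45 and 1.03 and an adjusted p of 1.00 (limma). The sign depended on single libraries: leaving out replicate 3 of miR-204-5p gave 0.10 and leaving out its replicate 2 gave -0.61. Leaving out replicate 2 of miR-NC gave 0.11 and leaving out its replicate 3 gave -0.72. PTPN11 shares 111 exon bases with RPL6, a ribosomal protein gene on the other strand at 201 to 327 FPKM. The libraries marked strand, but the sources used here do not say whether the counting used it, so RPL6 reads in the PTPN11 values cannot be told apart.

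The genes whose log2(FPKM + 1) followed PTPN11 most closely over the 6 libraries were CMTM6, a membrane protein that stabilises PD-L1, with Pearson's r = 0.999, and ACTR2, a subunit of the actin-branching ARP2/3 complex, with r = 0.998. These are descriptions over 6 libraries that share depth and preparation, and 1386 genes had an r over 0.95. CMTM6 stood at 7.90, 14.6 and 6.07 FPKM with miR-204-5p and 12.4, 15.1 and 5.59 FPKM with miR-NC. The order was that of PTPN11, with miR-204-5p replicate 2 and miR-NC replicates 1 and 2 above the others.

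That same set of 3 libraries was the highest for 4 of the 10 genes (PTPN11, JAK2, ITPR1 and ELOVL6). It was also the highest set for 33.2% of all genes tested, out of 20 possible sets. The leading principal component of all genes tested, with 54.1% of the variance, placed miR-204-5p replicate 2 and miR-NC replicates 1 and 2 between 26.1 and 33.1 and the other 3 libraries between -41.1 and -15.3. The set holds 1 miR-204-5p and 2 miR-NC libraries, so this axis moves with the group in part. Within each group, SERP1 and BDNF also ran from replicate 2 through 1 to 3, the order of the libraries on this axis. The share of the axis in the values of these genes, or of any other of the 10, was not tested.

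Of 26 adaptors and genes of the RAS-MAPK cascade that SHP2 feeds, 24 were tested, 4 with a log2 fold change above 0 and 20 below, with a median of -0.17, and 0 passed the test. In 1 of them limma gave an unadjusted p under 0.05, NF1, which encodes neurofibromin, a protein that switches RAS off. NF1 was at 0.488, 0.516 and 0.393 FPKM with miR-204-5p and at 1.28, 0.709 and 0.913 FPKM with miR-NC. Its groups did not overlap, its log2 fold change was -0.42 with limits of -0.77 and -0.06, its unadjusted p was 0.0268 (limma), and its 3' UTR holds no seed match. That p went over 0.05 in 3 of the 6 fits that left out 1 library, to between 0.0586 and 0.0764, and to 0.0872 without both libraries numbered 3 (limma). The highest gene of the cascade, the kinase MAP2K2, was at 60.4 and 56.7 FPKM, a log2 fold change of 0.07. It was -0.11 when replicate 3 of miR-204-5p was left out, -0.029 when replicate 2 of miR-NC was, and -0.024 without both libraries numbered 3.

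JAK2, the kinase bound to many cytokine receptors, was below the filter, with 1 library over 0.5 FPKM. It stood at 0.267, 0.373 and 0.218 FPKM with miR-204-5p and 0.528, 0.499 and 0.249 FPKM with miR-NC, the equivalent of about 21.9 to 62.1 read pairs. The groups overlapped only through miR-NC replicate 3, and the exact two-sided permutation p of the FPKM values was 0.3. Its relative JAK1, which lacks a seed match, was at 5.80 ± 1.66 and 6.36 ± 1.74 FPKM (SD, n = 3 each), with a log2 fold change of -0.11, read after its values were seen. Of 34 other genes of JAK-STAT signalling, 25 were tested, 5 above and 20 below 0 with a median of -0.14, and 0 passed the test or reached an unadjusted p under 0.05 (limma). OSMR, the oncostatin M receptor and the highest of them, was at 19.5 ± 4.88 and 22.8 ± 3.95 FPKM (SD, n = 3 each), with a log2 fold change of -0.23. EPOR, the erythropoietin receptor, had the smallest unadjusted p, 0.180 (limma), with a log2 fold change of -0.29.

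ITPR1, a channel through which IP3 releases calcium from the endoplasmic reticulum, was at 0.120, 0.330 and 0.159 FPKM with miR-204-5p and at 0.331, 0.434 and 0.158 FPKM with miR-NC. The groups overlapped, and the exact two-sided permutation p was 0.4. An antisense gene sharing 444 exon bases with ITPR1 was at 0 to 0.435 FPKM, as high as ITPR1, so reads of one in the other cannot be told apart. ARPE-19 carried mostly another receptor of the family: ITPR3, which lacks a seed match, was at 22.9 ± 8.10 and 27.1 ± 7.15 FPKM, and ITPR2 at 0.243 ± 0.086 and 0.269 ± 0.093 FPKM (SD, n = 3 each), both chosen after their values were seen. Of 29 other genes of IP3 and store-operated calcium, 21 were tested, 10 above and 11 below 0, and 0 passed the test or reached an unadjusted p under 0.05 (limma). The smallest p was that of ORAI1, the pore of the store-operated channel. ORAI1 was at 26.1, 18.5 and 27.5 FPKM with miR-204-5p and at 16.9, 5.55 and 17.7 FPKM with miR-NC, so its groups did not overlap. Its log2 fold change was 0.93 with limits of -0.06 and 1.92 and an unadjusted p of 0.0626 (limma). It rested in large part on the low miR-NC replicate 2, without which it was 0.44 with an unadjusted p of 0.111 (limma). Leaving out replicate 1 or 3 of miR-NC gave 1.16 and 1.19, with unadjusted p-values of 0.0489 and 0.0322 (limma). PLCD3, a phospholipase C and the highest of the list, was at 30.2 ± 4.62 and 24.2 ± 2.68 FPKM (SD, n = 3 each), with a log2 fold change of 0.30.

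SERP1, a small protein that binds the SEC61 channel and protects newly made membrane proteins under stress, had the smallest unadjusted p of the 5 tested. It stood at 9.84, 10.5 and 9.29 FPKM with miR-204-5p and at 15.7, 16.0 and 11.8 FPKM with miR-NC. The groups stood apart, with 1.36 FPKM between the highest miR-204-5p and the lowest miR-NC library. The means were 9.87 ± 0.60 and 14.5 ± 2.32 FPKM (SD, n = 3 each), which is 32.0% lower with miR-204-5p, and the log2 fold change was -0.50 (SE 0.17), with limits of -0.92 and -0.09. The unadjusted p was 0.0233 and the adjusted p 1.00 (limma), so SERP1 did not pass the test. Leaving out any single library kept the log2 fold change between -0.63 and -0.43. The unadjusted p went over 0.05 in 4 of these 6 fits, to between 0.0623 and 0.0857 (limma). Under the alternatives that kept all 6 libraries it was between 0.0092 and 0.0232 (limma), and SERP1 passed the test in none of them. SERP1 shares 153 exon bases with EIF2A (8.63 to 15.0 FPKM) and 61 with SELENOT (11.4 to 25.8 FPKM), both on the other strand, and the limit given for RPL6 holds for them. In bulk RNA, fewer cells of a type and less RNA per cell cannot be told apart, which holds for every value here.

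The genes that followed SERP1 most closely over the 6 libraries were ELL2, a transcription elongation factor, with r = 0.998, and BDNF, with r = 0.990. Fewer genes ran alongside SERP1 than alongside PTPN11, with 31 at an r over 0.95. ELL2 stood at 6.18, 6.64 and 5.70 FPKM with miR-204-5p and at 9.33, 9.55 and 7.28 FPKM with miR-NC, so its groups did not overlap. It was picked for its likeness to SERP1 in these same libraries, so this separation adds nothing to that of SERP1.

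Among its relatives on the secretory entry path, values lay on both sides of 0. SERP2, its paralogue, holds no seed match and was at 14.3 ± 3.55 and 12.2 ± 3.35 FPKM (SD, n = 3 each), with a log2 fold change of 0.21, read after its values were seen. Of 33 other translocon, signal recognition, signal peptidase and oligosaccharyltransferase genes, all 33 were tested, 13 above and 20 below 0 with a median of -0.10 (0.016 when replicate 2 of miR-NC was left out), and 0 passed the test or reached an unadjusted p under 0.05 (limma). SRPRB, which anchors the signal recognition particle receptor, had the smallest p, 0.0703 unadjusted (limma). It was at 11.3 ± 0.13 and 8.70 ± 1.27 FPKM (SD, n = 3 each), higher in each miR-204-5p library than in any miR-NC library, with a log2 fold change of 0.35 and limits of -0.04 and 0.73. RPN2, a subunit of the oligosaccharyltransferase and the highest of the list, was at 150 and 162 FPKM, a log2 fold change of -0.12.

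**Figure D4:**
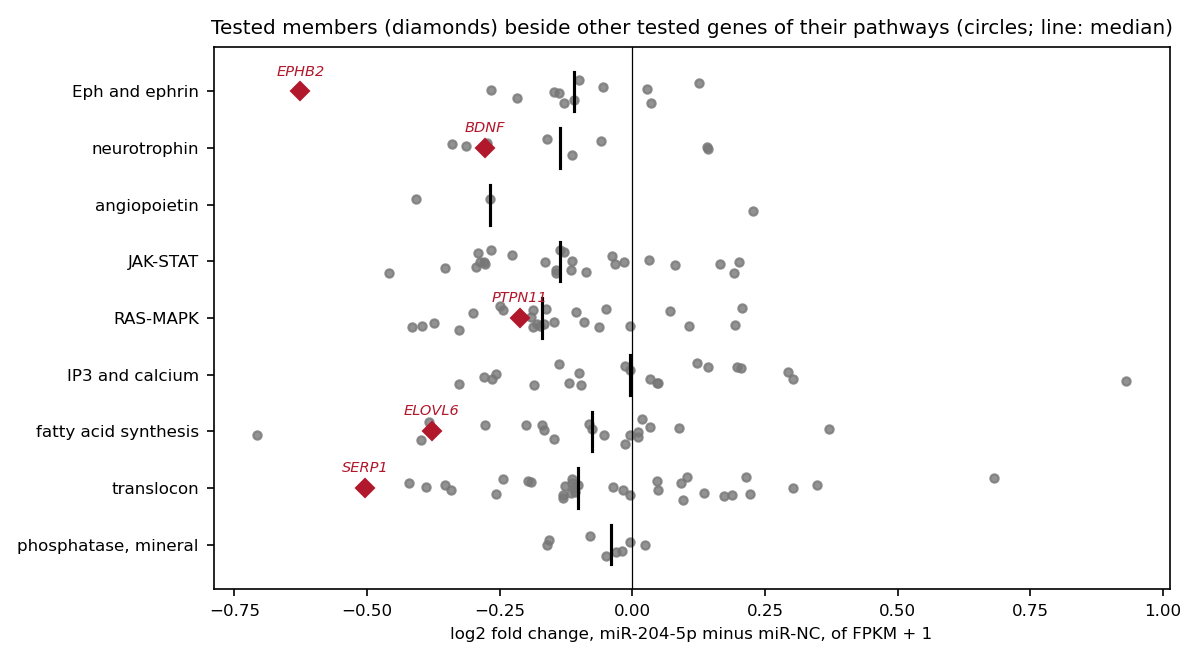
log2 fold changes of FPKM + 1 (x axis, miR-204-5p minus miR-NC) of the tested genes in 9 lists of pathway relatives (grey circles, with the list's median as a black line) and of the 5 tested reported targets (red diamonds). EPHB2 at -0.63 and SERP1 at -0.50 lie below each tested relative in their lists, while PTPN11 at -0.21 lies near its list's median of -0.17. The angiopoietin list shows only ANGPTL2, ANGPTL4 and PTPRB, and no angiopoietin or TIE receptor.

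ELOVL6, the elongase that makes stearate from palmitate, stood at 6.62, 8.35 and 4.85 FPKM with miR-204-5p and at 11.1, 9.83 and 5.95 FPKM with miR-NC. The groups overlapped through miR-NC replicate 3, which lay below 2 of the miR-204-5p libraries. The means were 6.61 ± 1.75 and 8.98 ± 2.70 FPKM (SD, n = 3 each), with a log2 fold change of -0.38 (SE 0.28), limits of -1.04 and 0.28 and an adjusted p of 1.00 (limma). It was -0.62 without miR-NC replicate 3, with an unadjusted p of 0.0435 (limma), and -0.20 without miR-204-5p replicate 3.

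Of 23 other elongases, desaturases and fatty acid synthesis genes, 19 were tested, 6 above and 13 below 0 with a median of -0.08 (0.014 and 0.0072 when replicate 1 or 2 of miR-NC was left out), and 0 passed the test or reached an unadjusted p under 0.05 (limma). SCD, the desaturase that acts on stearate and the highest of the list, holds an 8mer match. It was at 78.9 ± 27.7 and 106 ± 38.3 FPKM (SD, n = 3 each), with a log2 fold change of -0.40. ELOVL1, an elongase of very long chains, had the smallest unadjusted p, 0.123 (limma), and a log2 fold change of 0.37. ELOVL5, which holds a 7mer-m8 match as ELOVL6 does, was at 15.8 ± 6.54 and 17.1 ± 7.42 FPKM (SD, n = 3 each). Its log2 fold change was -0.08, and it was picked after its values were seen. The other tested genes of the list with a 7mer-m8 as best match were ELOVL4 at -0.17, FADS1 at -0.15 and HACD2 at -0.71. HACD2 had limits of -2.77 and 1.35. Those with an 8mer besides SCD were HACD3 at -0.17 and ACACA at -0.01. Whether a match goes with the fold change was not tested.

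ALPL, the alkaline phosphatase of bone, liver and kidney, was listed at 0 in 5 libraries and at 0.0151 FPKM in miR-NC replicate 1, which is less than 1 read pair, so nothing can be compared. The other alkaline phosphatases were as low, with group means of at most 0.011 FPKM for ALPP, ALPI and ALPG, read after their values were seen. Of 14 other phosphatase, phosphate and mineralisation genes, 8 were tested, 1 above and 7 below 0, and 0 passed the test or reached an unadjusted p under 0.05 (limma). NT5E, which makes adenosine and phosphate at the cell surface, was the highest, at 197 and 217 FPKM, a log2 fold change of -0.16 that was 0.024 when replicate 1 of miR-204-5p was left out and 0.0065 when replicate 2 of miR-NC was. SLC20A1, a phosphate importer, had the smallest unadjusted p, 0.466 (limma), and a log2 fold change of -0.16 that was 0.017 when replicate 1 of miR-NC was left out.

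Over the 9 lists, 152 different genes were tested, of which 107 had a log2 fold change below 0 and 45 above, with a median of -0.11, where 53.1% of all genes tested were below 0. Of these, 1 (NF1) was at an unadjusted p under 0.05 (limma), which is 0.658% against 2.08% of all genes tested. Groups that did not overlap, found in 5.95% of all genes tested, were seen in 8 of the 152, 4 lower (SHC1, NF1, ORAI3 and SEC61A2) and 4 higher (MAPK3, ORAI1, INPP5A and SRPRB). A seed match of some class was present in 51.5% of all genes on these lists and an 8mer in 15.7%.

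**Figure D5:**
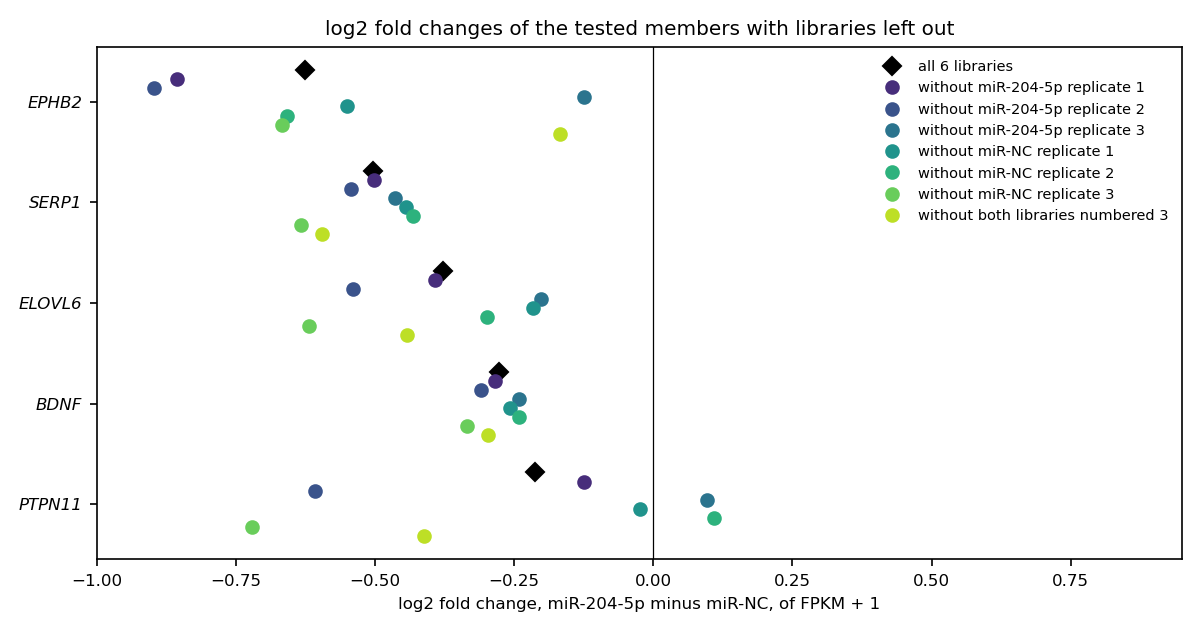
log2 fold change of FPKM + 1 (x axis, miR-204-5p minus miR-NC) of the 5 tested genes with all 6 libraries (black diamonds) and with libraries left out (coloured circles). BDNF stays between -0.33 and -0.24 and SERP1 between -0.63 and -0.43, EPHB2 moves to -0.13 without miR-204-5p replicate 3, and PTPN11 crosses 0.

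In the authors' deposited table, none of the 10 genes was marked as changed, and each had a q of 1. The log2 fold of the mean FPKM in the authors' deposited table was -0.57 for EPHB2 and -0.56 for SERP1, and it was -0.27 for PTPN11. Among the genes below the filter, the authors' deposited table gave -0.57 for JAK2 and -0.60 for ITPR1, with p-values of 0.294 and 0.277. It also gave -1.70 for ANGPT1, -0.69 for NTRK2 and -5.67 for ALPL, which rest on a handful of reads.

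The libraries corresponded to about 19000000 to 23300000 read pairs. Of 5 markers of a simple epithelium 2 passed the filter, the keratins KRT8 at 124 to 164 FPKM and KRT18 at 194 to 249 FPKM, while KRT19, EPCAM and CDH1 stayed at or below 0.292 FPKM. Of 14 markers of retinal pigment epithelium 6 passed the filter: BEST1, RLBP1, MITF, OTX2, SERPINF1 and RDH5, from 0.948 FPKM (MITF) to 9.70 FPKM (OTX2). RPE65 stayed at or below 0.029 FPKM, and TYR and TTR were at 0 in every library. The 14 markers summed to 23.7 to 27.7 FPKM with miR-204-5p and 27.1 to 31.6 FPKM with miR-NC. Of 7 endothelial markers 0 passed the filter, and they summed to at most 0.418 FPKM. Of 9 markers of neurons and photoreceptors 1 passed, with sums of 1.65 to 2.42 and 1.53 to 2.10 FPKM, and of 7 leukocyte markers 1 passed (CD68), with sums of 25.5 to 41.8 and 29.7 to 39.0 FPKM. Markers of fibroblasts and pericytes, of which 3 of 9 passed, summed to 19.0 to 22.4 FPKM with miR-204-5p and 14.9 to 17.8 FPKM with miR-NC. Most of these sums was ACTA2, a contractile gene, at 10.95 to 17.21 FPKM. PDGFRB was at 0.989 to 3.17 FPKM, COL1A1 at 0.394 to 2.14 FPKM and COL1A2 at 0 to 0.948 FPKM. PDGFRA, DCN, LUM, THY1 and RGS5 stayed at or below 0.505 FPKM. The part of these markers in the values of the 10 genes was not tested.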

How the data were processed

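RNA from 3 miR-204-5p and 3 miR-NC libraries, described as biological replicates in the series' design text, was read as strand-marked paired ends. The authors deposited FPKM per gene and library, with 0.0001 in place of 0. The build was GRCh38, and the tools named per the submitters' processing notes, without role or order, were HISAT2 2.0.4, cutadapt 1.9, edgeR, DESeq2 and StringTie 1.3.4d. The sources used here give no annotation release and no filter. A second deposited set of columns holds, for each gene, the authors' fold ratio, the log2 of it, and a p-value with its q-value.

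From these, a trended fit in limma 3.58.1 (R 4.3.3) was run on log2(FPKM + 1) with group as its only term, two-sided, over 13151 genes with at least 0.5 FPKM in at least 3 libraries, with Benjamini-Hochberg adjustment at 0.05 and 95% limits. The code of the fit was run on simulated data with 200 changed genes and errors independent between genes. The real libraries share an axis of variance, so that run does not measure power or false calls here. Exact permutation tests used scipy 1.17.1 in Python 3.11.15. Since FPKM values are relative to the library, an RNA abundant in 1 library pulls the rest of that library down. Read pairs were estimated by taking the commonest product of FPKM and length as 1 pair, which is rough: 23.8% to 29.5% of values lay within 1% of whole or half-integer steps. All 6 sample columns were used and 0 left out.

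The 10 genes, the pathway lists and the markers were chosen with earlier results of these data known. Named were all 10, the highest and the smallest-p tested gene of each list, and the 2 genes most correlated with SERP1 (smallest p) and with PTPN11 (highest). The alternatives tried were a pseudocount of 0.1, no filter, median-of-ratios scaling, quantile normalization, a replicate block and leaving out libraries.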

Additional observations from a re-analysis of the deposited data

How the results depend on the processing

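Precision is limited by 3 libraries a group, and for ANGPT1, NTRK2 and ALPL by a handful of reads. None of the 10 genes had an adjusted p below 0.661 under any alternative (limma), and 0 were called throughout. Over all genes, 0 were called, and leaving out single libraries gave 0 to 3, the 3 without miR-204-5p replicate 2. The 273 genes at an unadjusted p under 0.05 were 731 with no filter, 941 with the replicate block, and 156 to 740 when single libraries were left out. Of the 10 genes, 1 was at such a p, 2 with the replicate block, and 0 to 2 when single libraries were left out. Of the pathway genes, 1 was at such a p, 3 with no filter, 2 with median-of-ratios scaling, 3 with quantile normalization, 11 with the replicate block, 0 to 9 when single libraries were left out, and 2 without both libraries numbered 3, a setting chosen after seeing the data. Same-numbered libraries of the groups had correlations of deviations of 0.04, 0.55 and 0.52 for numbers 1, 2 and 3. The values for numbers 2 and 3 were the highest of all pairs across the groups. Replicate 1 of miR-204-5p correlated best with miR-NC replicate 3 (0.16). The sources used here do not say what the numbers mark, so whether they pair the libraries was not settled. The median log2 fold change of the tested targets, -0.38, ran from -0.63 to -0.20 over these 5 genes, and was -0.18 with no filter, over all 10, and 3 or 4 genes had groups that did not overlap. Log2 fold changes that turned sign when single libraries were left out ran from -0.72 to 0.11 for PTPN11, -0.57 to 0.078 for CMTM6, -0.74 to 0.053 for ACTR2, -0.34 to 0.057 for EPHA2, -0.11 to 0.21 for MAP2K2, -0.40 to 0.024 for NT5E, -0.29 to 0.017 for SLC20A1 and -0.73 to 0.0050 for ANGPTL4. Leaving out replicate 3 of miR-204-5p turned the first 5 of these, with 0.10 for PTPN11, 0.065 for CMTM6 and 0.026 for ACTR2, and leaving out replicate 2 of miR-NC turned PTPN11, CMTM6, ACTR2, MAP2K2 (-0.029) and NT5E (0.0065). MAP2K2 was -0.024 without both libraries numbered 3. The other 286 log2 fold changes of named genes under the alternatives kept their direction. None reached an adjusted p under 0.05, as no gene had in the main fit. Unadjusted p-values did cross 0.05 in some fits (limma), among them those of SERP1, ELOVL6 and NF1. The medians of the Eph, calcium, fatty acid, translocon and mineralisation lists changed sign in 12 of their alternatives, in 11 of these by less than their spread. The cause of these changes was not tested.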
